A study of Mus musculus with 6 samples.

Results

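Regulators of G protein signalling are the proteins that switch heterotrimeric G proteins off, and 9 of their genes (Rgs1, Rgs2, Rgs3, Rgs10, Rgs12, Rgs14, Rgs16, Rgs18 and Rgs19) were followed in resident macrophages of the mouse peritoneal cavity with and without the transcription factor gene Gata6. Every probe set annotated with the symbol of 1 of these genes alone was taken, which gave 21 of the 34945 probe sets with 1 symbol (control probe sets left out), on an array of 45101. The genes were chosen with their differences between the genotypes already known. Their differences are therefore given as a description, with no p-value. Which of them the fit across all probe sets called is stated, but nothing is read from it.

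The series compared 3 arrays from mice with a conditional ("floxed") deletion of Gata6 (Gata6-KO) with 3 arrays from wild type mice (Gata6-WT), all 7 weeks old and described as sex-matched. Each array held total RNA of macrophages washed from the peritoneal cavity, pooled from 2 to 3 mice and sorted by a gate for high CD11b with little or no MHC class II. The labels call the pools biological replicates. The Cre line, the cell types it acts in, the deleted part of Gata6 and the strain do not appear in the labels used here, and "conditional" does not say which other cells of the host carried the deletion.

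A receptor of the seven-helix type activates a G protein by loading its alpha subunit with GTP, and the alpha subunit then parts from the beta and gamma subunits. An RGS protein binds the loaded alpha subunit through its RGS domain and speeds GTP hydrolysis, which ends the signal. The small R4 proteins act on alpha subunits of the Gi and Gq classes, the R12 proteins (RGS10, RGS12 and RGS14) mainly on Gi, and RGS19 belongs to the RZ group. In leukocytes these proteins limit responses to chemokines and other chemoattractants, most of whose receptors couple to Gi.

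The arrays had median signals of 79.7 to 88.5. The replicates numbered 1 carried male-type expression in both genotypes (Xist at 102 and 113, against 11158 to 13749 in the other 4 arrays), so differences are also given within the female-type arrays (2 against 2) and the male-type arrays (1 against 1, no test). At the Gata6 probe set with the highest mean the signals were 6433, 5405 and 7279 in Gata6-WT replicates 1, 2 and 3 and 4452, 3040 and 2998 in Gata6-KO, so that much signal was left (log2 -0.88 ± 0.17 SE, limma adjusted p = 0.011). The second had 1614, 1436 and 2276 against 2161, 1363 and 1751, with overlap (log2 -0.01 ± 0.21, adjusted p = 0.98). The weakest had 337, 449 and 483 against 184, 173 and 183 (log2 -1.15 ± 0.19, adjusted p = 0.0043). Where the probe sets lie relative to the deleted part is not known here. All 10 listed macrophage markers were above the filter on low signals described next, and 6 of them changed. Adgre1 (F4/80), Fcgr1, Timd4 and Cd68 fell (log2 -1.86, -2.80, -0.70 and -0.41; limma adjusted p = 0.00027, 0.00019, 0.0060 and 0.031), and Cd163 and Mertk rose (log2 5.46 and 0.43; adjusted p = 0.00011 and 0.031). Csf1r, Lyz2, Itgam and Cd14 did not pass (log2 0.06, -0.01, 0.24 and -0.12). The summed signal of the 10 was 208612 to 231625 in Gata6-KO and 230966 to 270843 in Gata6-WT. With 1 array left out, Cd68 kept its call only without Gata6-WT replicate 1 and Mertk only without Gata6-WT replicate 3 (log2 -0.46 to -0.35 and 0.38 to 0.50 over the 6 fits). The part of these shifts in the Rgs differences was not tested.

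Differences are on the scale of log2(signal + 16), Gata6-KO minus Gata6-WT, and understate the change of low signals. Tests were run on probe sets with a 6-array mean above the 40th percentile (a signal of 47.5), and a probe set was called at an adjusted p under 0.05. Of the 21 probe sets 15 passed the filter and 6 did not. The fit called 8 of the 15, all lower in Gata6-KO, against 10.8% of all tested probe sets called and 5.67% called lower. The same 8 had groups that did not overlap, where 16.3% of all tested probe sets had non-overlapping groups with lower values in Gata6-KO. By gene, taking the tested probe set with the highest mean, 8 of the 9 were tested and Rgs16 was not. The fit called 5 of the 8, all lower in Gata6-KO (Rgs1, Rgs2, Rgs3, Rgs10 and Rgs18), where 13.1% of all 12511 tested genes were called and 7.46% were called lower. With a change of at least 2-fold also required it called 4, against 5.52% of all tested genes. Those 5 genes were also the ones whose groups did not overlap, against 19.4% of all genes with non-overlapping groups and lower values in Gata6-KO. The median log2 difference of the 8 tested genes was -0.88 and that of all tested genes -0.04. Since the genes were chosen on this comparison, nothing is read from these shares. In bulk RNA, fewer cells of a type and less RNA per cell cannot be told apart.

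**Figure D1:**
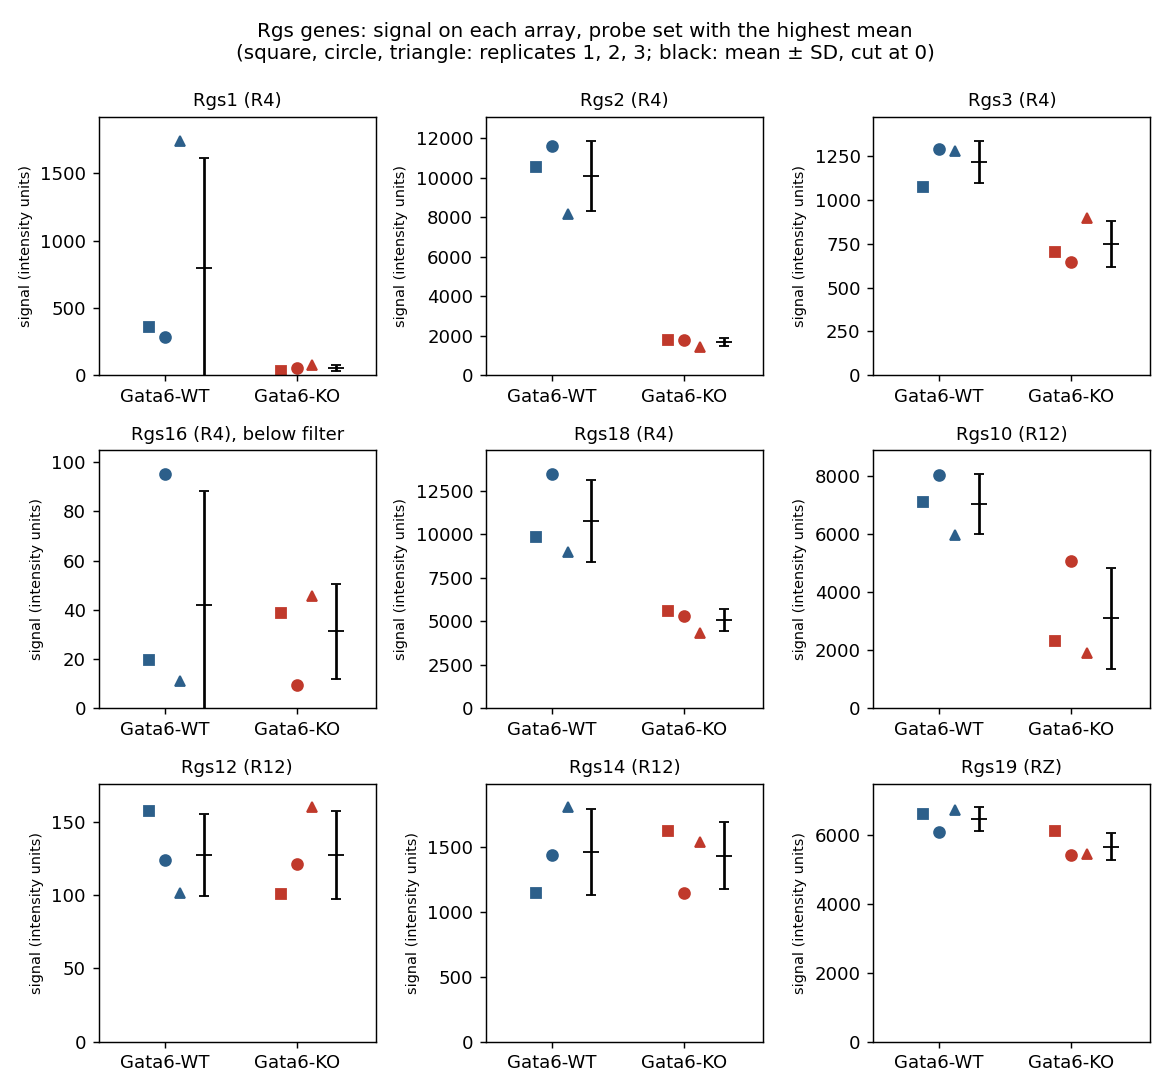
Signal (linear intensity units, axis from 0) of each of the 9 Rgs genes on the 3 Gata6-WT and 3 Gata6-KO arrays, at the probe set with the highest mean; squares, circles and triangles are replicates 1, 2 and 3, and black marks give the mean ± SD. The Gata6-KO points of Rgs1, Rgs2, Rgs3, Rgs18 and Rgs10 lie below all their Gata6-WT points, and those of the other 4 genes overlap them.

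Among the R4 genes Rgs2 was lower in Gata6-KO at 3 of its 4 probe sets with groups far apart. RGS2 acts preferentially on Gq, the class that drives phospholipase C and calcium release. At the probe set with the highest mean (1419248_at) its signal was 10542, 11609 and 8138 in Gata6-WT replicates 1, 2 and 3 and 1798, 1789 and 1414 in Gata6-KO replicates 1, 2 and 3. All Gata6-KO arrays were thus far below all Gata6-WT arrays, at 17.8% of the wild type mean or less. The log2 difference was -2.58 ± 0.15 SE, a signal 5.98-fold higher in Gata6-WT (10096 ± 1778 against 1667 ± 219, SD, n = 3). It was -2.60 in the female-type arrays and -2.54 in the male-type arrays. A pair of further Rgs2 probe sets had log2 differences of -2.52 ± 0.20 and -2.72 ± 0.23, also with groups that did not overlap. The remaining one (1443250_at) had much lower signals, 45.7 to 90.0 in Gata6-KO and 88.9 to 134 in Gata6-WT, which overlapped, and a log2 difference of -0.68 ± 0.31. The mean over all tested Rgs2 probe sets was -2.12.

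The promoter of Rgs2 is printed because this gene had 3 called probe sets, that of Rgs10 because it is another lower gene with a window in the RefSeq table (GRCm38.p6), and 1 of the Rgs3 windows because it alone among windows of the lower genes held a GATA motif. Each line gives the 250 bases before an annotated transcription start, 5′ to 3′ on the strand of the gene, with capitals marking 2 kinds of motif searched on both strands: the GATA factor motif (AGATAA and AGATAG, or TGATAA and TGATAG) and the cAMP response element half-site TGACG. The motifs share no overlapping letters in these windows.
Rgs2 (chr1:144004150-144004399, minus strand): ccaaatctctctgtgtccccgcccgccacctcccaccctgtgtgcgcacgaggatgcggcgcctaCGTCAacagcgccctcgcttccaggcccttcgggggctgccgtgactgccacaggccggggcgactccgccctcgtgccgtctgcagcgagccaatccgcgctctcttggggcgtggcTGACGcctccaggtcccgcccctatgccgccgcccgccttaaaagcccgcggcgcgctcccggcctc
Rgs10 (chr7:128418173-128418422, minus strand): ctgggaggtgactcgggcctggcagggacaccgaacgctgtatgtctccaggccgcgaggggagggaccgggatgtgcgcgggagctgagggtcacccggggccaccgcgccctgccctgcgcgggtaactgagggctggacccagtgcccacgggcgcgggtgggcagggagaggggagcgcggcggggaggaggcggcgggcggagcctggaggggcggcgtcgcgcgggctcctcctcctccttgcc
Rgs3 (chr4:62619422-62619671, plus strand): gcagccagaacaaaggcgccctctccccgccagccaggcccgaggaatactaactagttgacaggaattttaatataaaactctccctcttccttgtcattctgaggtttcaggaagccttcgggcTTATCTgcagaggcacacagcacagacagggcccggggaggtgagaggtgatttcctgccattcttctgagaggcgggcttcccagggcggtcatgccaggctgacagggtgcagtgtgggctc

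Among these, the Rgs2 window held 2 TGACG half-sites and no GATA motif, the Rgs10 window neither, and the Rgs3 window 1 GATA motif, on the reverse strand. Windows in the table covered 6 of the 9 genes, 10 windows in all, and 2 of the 10 held a GATA motif (the other one belonged to Rgs12) and 2 a TGACG half-site (Rgs2 and Rgs12). Of all 32851 windows of this length, 26.5% held a GATA motif and 17.8% a TGACG half-site. A match is a string of letters and does not show a bound site. Rgs1, Rgs14 and Rgs18 had no window in the table.

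Rgs1 had the largest log2 difference and the widest spread. RGS1 is known for damping the migration of B cells and other leukocytes toward chemokines. Its signal was 354, 286 and 1744 in Gata6-WT replicates 1, 2 and 3 and 27.7, 54.6 and 72.5 in Gata6-KO. The groups did not overlap, but Gata6-WT replicate 3 was far above the other wild type arrays, and the Gata6-KO arrays lay around the filter level of 47.5. The log2 difference was -3.16 ± 0.59 SE (795 ± 823 against 51.6 ± 22.6, SD, n = 3), and it was -2.37 without Gata6-WT replicate 3. With a pseudocount of 1 it was -3.52 and with 64 it was -2.49. The female-type and male-type arrays gave -3.21 and -3.08.

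Many immediate early genes, which are switched on within minutes of a stimulus and during tissue handling, were highest in that same array. The list held 12 such genes and 3 heat shock genes (Hspa1a, Hspa1b and Hspa8). Of the 12, 10 were highest in Gata6-WT replicate 3, while Jund (9131) and Nr4a1 (1028) were highest in Gata6-KO replicate 3. The summed signal of the 12 was 108498 in Gata6-WT replicate 3 and 28944 to 45480 in the other 5 arrays, and that of the heat shock genes was 39090 against 28805 to 40885. Of all 15, 4 fell in Gata6-KO (Egr1, Zfp36, Ier2 and Junb, log2 -2.21, -1.81, -1.03 and -0.90; limma adjusted p = 0.019, 0.030, 0.0080 and 0.034) and 0 rose, with a median of -0.23 over the 15 and -0.66 over the 12. Egr1, a zinc finger transcription factor, was at 3121, 4272 and 11573 in Gata6-WT and 1295, 621 and 1883 in Gata6-KO. Fos reached 26266 in Gata6-WT replicate 3, against 2291 to 5000 elsewhere, and did not pass. With 1 array left out the call of Ier2 was kept in all 6 fits. Egr1 lost its call without Gata6-KO replicate 2 (log2 -1.77), Zfp36 without any 1 of the Gata6-KO arrays (log2 -1.75, -1.76 and -1.93), and Junb without Gata6-KO replicate 1 or 2 or Gata6-WT replicate 1 or 3 (log2 -0.84, -0.84, -0.94 and -0.64). Zfp36 was at log2 -1.17 without Gata6-WT replicate 3. Among the other called Rgs genes, each at its highest probe set, Rgs2, Rgs10 and Rgs18 had their lowest wild type signal in Gata6-WT replicate 3. Rgs3 did not. The part of the immediate early signal in the differences of Rgs1 and of the other Rgs genes was not tested.

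**Figure D2:**
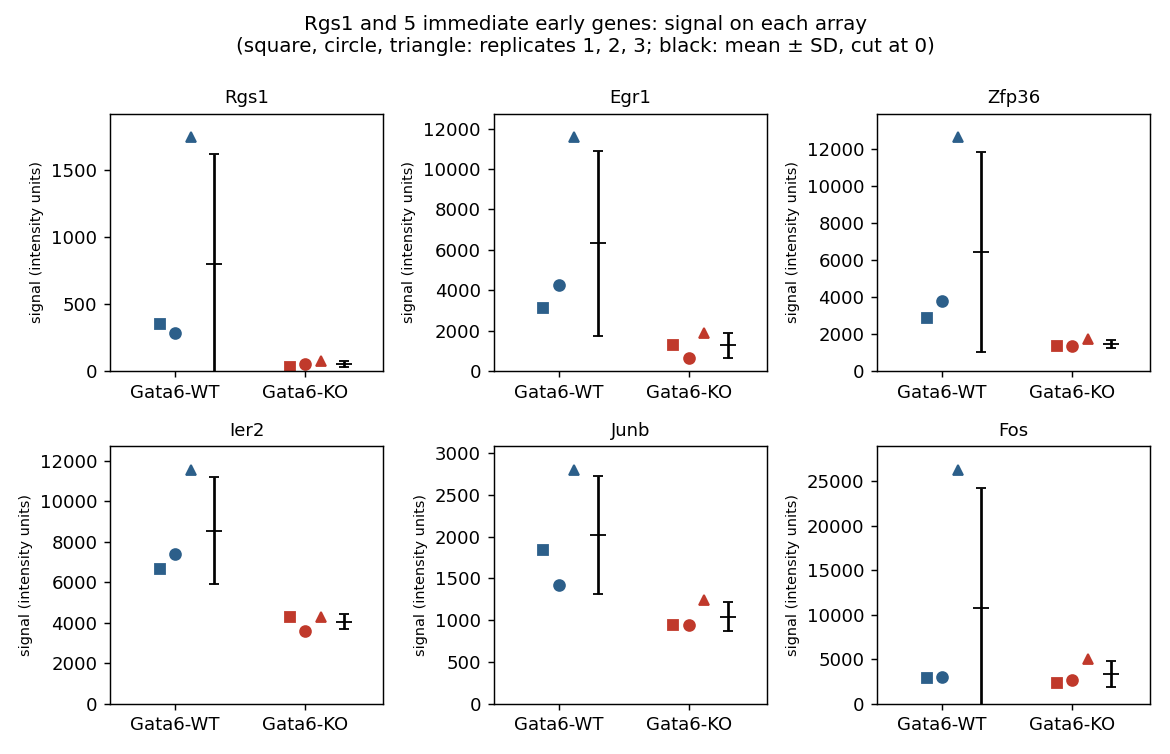
Signal (linear intensity units, axis from 0) of Rgs1 and of the immediate early genes Egr1, Zfp36, Ier2, Junb and Fos on each array; squares, circles and triangles are replicates 1, 2 and 3, and black marks give the mean ± SD. In all 6 genes Gata6-WT replicate 3 is the highest array, with Rgs1 at 1744 and Fos at 26266.

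Rgs18 was lower at both of its probe sets. RGS18 acts on Gi and Gq and is best known from platelets and megakaryocytes. At the first probe set (1420398_at) the signal was 9830, 13460 and 8990 in Gata6-WT and 5573, 5305 and 4349 in Gata6-KO. No Gata6-KO array reached the lowest Gata6-WT array, and Gata6-KO kept 51.8%, 49.3% and 40.4% of the wild type mean in replicates 1, 2 and 3. The log2 difference was -1.07 ± 0.16 SE (-1.19 female-type, -0.82 male-type). The second probe set (1449856_at) gave -1.33 ± 0.21, from 5450 ± 1080 to 2174 ± 543 (SD, n = 3), again with groups apart.

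Platelet and granulocyte genes were read beside Rgs18, since those cells also express it. Of 8 listed platelet and megakaryocyte genes 6 were measured, 4 passed the filter, and 0 changed. Their summed signal ranged from 36610 to 46744 in Gata6-KO and from 38255 to 51657 in Gata6-WT, nearly all of it Pf4, while Ppbp and Gp9 were at or below 58.4 in every array. Of 7 measured neutrophil and eosinophil genes 2 passed the filter and both fell, Csf3r and S100a8 (log2 -1.06 and -1.20, limma adjusted p = 0.0074 and 0.029). S100a8 lost its call without Gata6-KO replicate 2 or 3 or Gata6-WT replicate 1 or 3 (log2 -0.88, -1.26, -1.25 and -0.97). The summed signal of these 7 was 2594 to 3660 in Gata6-KO and 5572 to 8398 in Gata6-WT, without overlap. Nearly all of it was Csf3r and S100a8, so the sum says little about the rest of the list. S100a9 was at or below 26.8 and Epx at or below 56.6 in every array. The part of these genes in the Rgs18 difference was not tested.

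In the remaining lists of other cell types 1 gene changed, Cd209a of the dendritic cell list, which fell (log2 -2.17, limma adjusted p = 0.010). Its signal was 1109, 584 and 281 in Gata6-WT and 101, 92.1 and 158 in Gata6-KO. The list sum was 388 to 720 in Gata6-KO and 661 to 1364 in Gata6-WT, where Cd209a made up much of it. Dendritic cell genes had 4 of 6 above the filter. Itgae (log2 -0.86), Zbtb46 (0.24) and Siglech (0.95) did not pass the threshold. Of 7 measured B cell genes 3 passed the filter and 0 changed, with summed signals of 395 to 444 in Gata6-KO and 319 to 411 in Gata6-WT, and 1 of 7 T and NK cell genes passed the filter (304 to 339 against 272 to 435). Mast cell genes summed to 350 to 504 in Gata6-KO and 551 to 647 in Gata6-WT, without overlap, with 2 of 7 above the filter and 0 changed. Those above it were Cpa3 and Cma1, at log2 -0.78 and -1.31 (limma adjusted p = 0.051 and 0.083). Together they made up most of the list sum in each Gata6-WT array, so the sum says little about the rest of the list. Both had lower values in Gata6-KO with groups that did not overlap. Kit and Fcer1a of the same list were below the filter. Mesothelial and fibroblast genes had 1 of 8 above the filter and summed to 228 to 329 against 251 to 308. B cells are known for high Rgs1, and the parts of these cell types in the Rgs differences were not tested.

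Rgs3 differed among its probe sets. RGS3 acts on Gi and Gq and is made in several forms, the longer ones with added domains in front of the RGS domain. At the probe set with the highest mean (1425296_a_at) the signal was 1078, 1295 and 1283 in Gata6-WT and 705, 646 and 897 in Gata6-KO, with groups apart. The log2 difference was -0.70 ± 0.15 SE (-0.75 female-type, -0.60 male-type). A second probe set (1425701_a_at), at 200 to 272 in Gata6-WT and 125 to 291 in Gata6-KO, gave -0.16 ± 0.29 with overlapping groups. It was at 0.18 without Gata6-KO replicate 2. The third (1449516_a_at) gave 0.36 ± 0.30, from 104 ± 42.0 to 132 ± 15.7 (SD, n = 3), also overlapping, with 0.60 in the female-type and -0.12 in the male-type arrays. The last, at 8.31 to 24.0 over all arrays, was below the filter. The mean over the tested probe sets was -0.17, and which forms of Rgs3 each probe set reads is not known here. Leaving out Gata6-KO replicate 1 or 2 or Gata6-WT replicate 2 or 3 ended the call of Rgs3, at log2 differences from -0.83 to -0.60 over the 6 such fits.

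Rgs16, an R4 gene induced by inflammatory stimuli in leukocytes, was not tested. Its 3 probe sets had signals of 9.46 to 45.6, 3.17 to 14.6 and 2.53 to 3.75 in Gata6-KO, and reached at most 95.2, 40.2 and 20.0 in Gata6-WT. Its means were below the filter, and the groups overlapped at each probe set. Their log2 differences of -0.11, -0.61 and -0.34 have no standard error from the fit.

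Rgs10 was the lower gene of the R12 group. RGS10 is a small protein that acts on Gi and is known in microglia and macrophages for restraining inflammatory activation. Its 1 probe set had 7108, 8022 and 5951 in Gata6-WT replicates 1, 2 and 3 and 2306, 5080 and 1907 in Gata6-KO replicates 1, 2 and 3. Gata6-KO replicate 2 stood well above the other Gata6-KO arrays, at 72.3% of the wild type mean against 32.8% and 27.1%, yet below the lowest wild type array. The log2 difference was -1.30 ± 0.31 SE (3098 ± 1728 against 7027 ± 1038, SD, n = 3), and -1.73 without Gata6-KO replicate 2. Female-type and male-type arrays gave -1.15 and -1.62. It lost its call without Gata6-KO replicate 1 (-1.16) or 3 (-1.02) and without Gata6-WT replicate 1 (-1.29) or 2 (-1.20).

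Rgs12 and Rgs14, the R12 genes whose proteins also carry a Ras-binding region and a GoLoco motif that holds Gi in its GDP-bound state, showed no separation of the genotypes. Rgs14 had 1143, 1437 and 1803 in Gata6-WT and 1621, 1141 and 1533 in Gata6-KO. The groups covered the same range, with a log2 difference of -0.02 ± 0.19 SE. Rgs12 was weakly measured, at 157, 124 and 101 in Gata6-WT and 101, 121 and 160 in Gata6-KO at its highest probe set (log2 -0.01 ± 0.26), while its other probe sets lay at 4.85 to 47.3 in Gata6-KO and 2.80 to 56.1 in Gata6-WT, below the filter. For both genes the sign of the difference turned with 1 array left out, from -0.16 to 0.14 for Rgs12 and from -0.18 to 0.14 for Rgs14. It also differed between the types, at log2 -0.28 in the female-type and 0.50 in the male-type arrays for Rgs14 and 0.28 and -0.57 for Rgs12.

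Rgs19, the RZ gene whose protein (also called GAIP) binds Gi and sits on membranes through a string of cysteines, was slightly lower at both probe sets without passing the threshold. At the first (1417786_a_at) the signal was 6600, 6073 and 6704 in Gata6-WT and 6101, 5408 and 5444 in Gata6-KO. The highest Gata6-KO array was just above the lowest Gata6-WT array. The log2 difference was -0.19 ± 0.10 SE, and -0.28 ± 0.15 at the second (1434940_x_at).

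**Figure D3:**
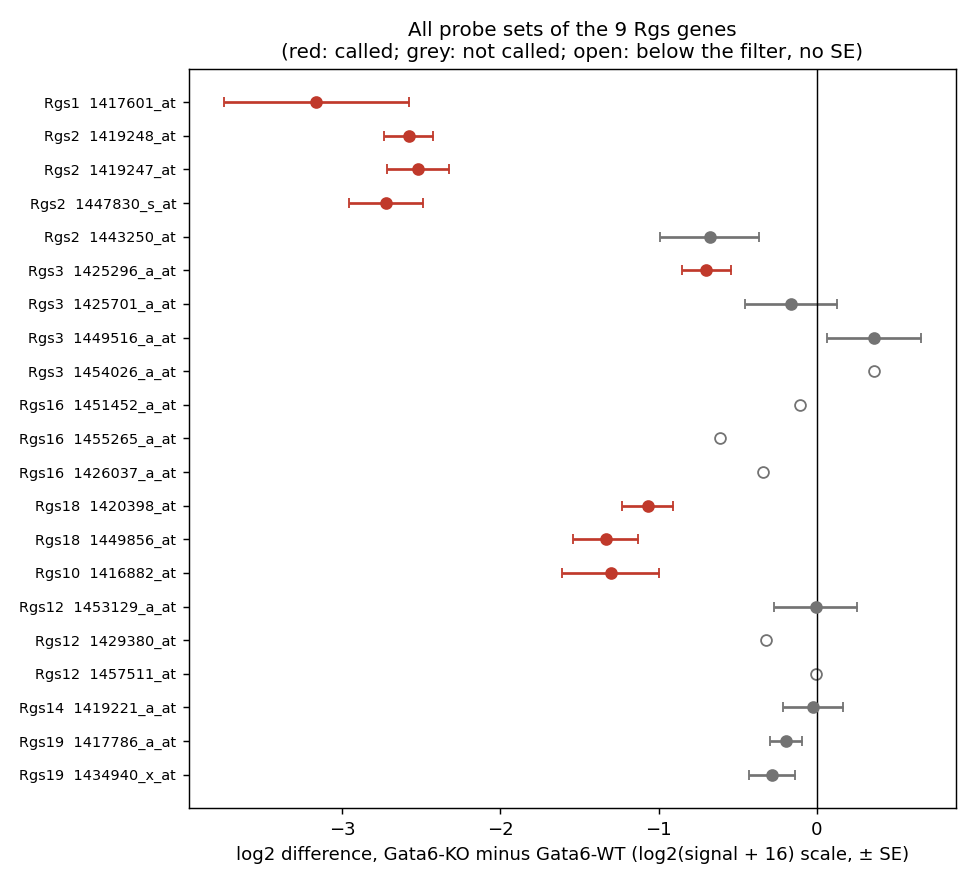
Log2 difference (Gata6-KO minus Gata6-WT, log2(signal + 16) scale) of all 21 probe sets of the 9 Rgs genes, with SE bars for the 15 tested; red points were called by the fit, grey ones were not, and open points lay below the filter. The called points run from -3.16 for Rgs1 to -0.70 for Rgs3, and the 3 tested Rgs3 probe sets lie on both sides of 0.

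The interaction of sex type and genotype passed the threshold for 0 of the 15 tested probe sets (limma; lowest adjusted p 1.00, and 0 at an unadjusted p under 0.05), where 0 of 27022 probe sets passed in all and 1075 (3.98%) had an unadjusted p under 0.05. With 1 male-type array per genotype this does not show that the types were alike.

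Position in the genome was shared by some of the lower genes. In the RefSeq gene table Rgs2, Rgs13, Rgs1, Rgs21 and Rgs18 follow each other on chromosome 1 with no other protein-coding gene between them. The 3 of these that were above the filter (Rgs2, Rgs1 and Rgs18) were all called lower in Gata6-KO, against 7.46% of all tested genes. They are among the genes chosen on this comparison, so nothing is read from this. The part of position in the differences was not tested. Rgs13, known from mast cells and germinal centre B cells, had signals of 0.98 to 24.3 and was below the filter, and Rgs21 had no probe set of its own here. Rgs16 and Rgs8 neighbour each other elsewhere on the same chromosome. Rgs8 was also below the filter, at 35.6 to 40.5 in Gata6-KO and 2.99 to 16.9 in Gata6-WT. The called genes Rgs3 and Rgs10 lie on chromosomes 4 and 7.

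The rest of the Rgs family was little expressed. Of the 12 other genes, 10 had a probe set and 5 passed the filter, and 0 of the 5 changed. Their summed signal was 617 to 726 in Gata6-KO and 526 to 799 in Gata6-WT. Rgs17, an RZ gene, had 91.7, 109 and 88.2 in Gata6-KO and 53.2, 24.1 and 72.8 in Gata6-WT (log2 0.84 ± 0.36 SE, limma adjusted p = 0.19), and Rgs11 a log2 difference of -0.75 ± 0.41 (adjusted p = 0.30). In the list of other proteins with an RGS-type domain and partners of the neuronal R7 proteins, 1 of 12 tested genes rose and 1 fell, with a median of 0.10. The sorting nexin gene Snx13 rose from 1896 ± 36.8 to 2624 ± 83.1 (log2 0.47, limma adjusted p = 0.018) and Arhgef12, an exchange factor driven by G12 and G13, fell by 0.45 on the log2 scale (adjusted p = 0.030). The call of Snx13 was lost without Gata6-KO replicate 2 or 3 or Gata6-WT replicate 2 (log2 0.46, 0.45 and 0.47), and that of Arhgef12 in 5 of 6 fits with 1 array left out, all but the one without Gata6-KO replicate 3 (log2 -0.52 to -0.40 over the 6).

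Among G protein alpha subunits, the targets of RGS proteins, 1 of 12 tested rose and 0 fell, with a median of -0.07. Gna12, an alpha subunit of the G12 class, rose from 549, 512 and 589 in Gata6-WT to 1559, 1353 and 1232 in Gata6-KO (log2 1.30 ± 0.14 SE, limma adjusted p = 0.00036), with a call in all 6 fits that left out 1 array. Gnai2 and Gnai3, the Gi subunits of leukocytes, had log2 differences of -0.00 ± 0.11 and -0.15 ± 0.10 and did not pass (adjusted p = 0.99 and 0.38). Gnaq was at 0.26 ± 0.10 at its highest probe set (adjusted p = 0.14), but 3 of its other probe sets passed at 0.47, 0.62 and 0.79. Of 12 beta and gamma subunits 2 rose, with a median of 0.12. Gng2 was at 0.19 at its highest probe set and did not pass, but another of its probe sets passed at 0.74. Gngt2 rose from 2809 ± 173 to 4380 ± 385 (log2 0.64, adjusted p = 0.0060). Gnb1 rose at its highest probe set (log2 0.47, adjusted p = 0.011) and was at -0.13 at another, and its call was lost without Gata6-WT replicate 2 (log2 0.46).

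Of 11 tested genes for receptor kinases, arrestins, GoLoco proteins and Ric8 chaperones, a list of mixed roles, 3 fell and 0 rose, with a median of -0.22. Arrb1 and Arrb2, the beta-arrestins that uncouple receptors from G proteins, both fell. Arrb2 had 7963, 7118 and 9843 in Gata6-WT and 4022, 4850 and 4481 in Gata6-KO (log2 -0.89 ± 0.14 SE, limma adjusted p = 0.0033; -0.80 at its other probe set). Arrb1 fell from 2197 ± 284 to 1191 ± 147 (log2 -0.87, adjusted p = 0.0044). Gpsm1, a GoLoco protein, fell by 0.74 on the log2 scale at its highest probe set (adjusted p = 0.022), with -0.02 and 0.04 at the others. Its call was lost without Gata6-KO replicate 1 or 2 or Gata6-WT replicate 2 (log2 -0.74, -0.67 and -0.66).

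Effector genes fell in 4 of 16 tested cases and rose in 0, with a median of -0.11. Plcb4, a phospholipase C driven by Gq, fell from 1317, 1275 and 1381 to 163, 303 and 222 (log2 -2.49 ± 0.20 SE, limma adjusted p = 8.8e-05; -1.70 at its other tested probe set). Adcy6 and Adcy4 are adenylyl cyclase genes, whose products make cAMP and answer to Gs. They fell by 2.21 and 2.16 on the log2 scale (limma adjusted p = 0.014 and 0.021). Both were lowest in Gata6-KO replicate 1, at 15.4 for Adcy6 and 23.7 for Adcy4, and were at -1.60 and -1.54 without that array. The Adcy4 call was lost without Gata6-WT replicate 2 (log2 -2.20) or 3 (-1.92). Prex1, a Rac exchange factor driven by beta and gamma subunits, fell by 0.72 (adjusted p = 0.021), a call lost without Gata6-KO replicate 3 or Gata6-WT replicate 2 or 3 (log2 -0.56, -0.69 and -0.70).

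Receptors changed in both directions. Of 12 tested receptors that couple mainly to Gi 2 rose and 2 fell (median 0.20), and of 12 that couple mainly to Gq or Gs 3 rose and 1 fell (median 0.00). These counts take the highest probe set of each gene. Ccr1 and C5ar1 did not pass there (log2 -0.13 and 0.64, limma adjusted p = 0.46 and 0.071). At another probe set each passed (log2 -0.66 and 0.94, limma adjusted p = 0.035 and 0.0046). The UDP-glucose receptor gene P2ry14 fell from 863 ± 58.1 to 175 ± 11.9 (log2 -2.20, limma adjusted p = 3.2e-05). Ptger4, a Gs-coupled receptor of prostaglandin E, fell from 13558, 14428 and 5704 to 901, 790 and 1280 (log2 -3.40 ± 0.32 SE, adjusted p = 0.00021). Hrh1, a Gq-coupled histamine receptor, rose from 125 ± 2.36 to 287 ± 32.1 (2.14-fold on the log2(signal + 16) scale, adjusted p = 0.0054). The chemokine receptor gene Ccr2 and the UDP receptor gene P2ry6 had the largest rises, at log2 4.58 and 3.44, and Ccr2 was at 3.84 without Gata6-KO replicate 1. Hcar2 (log2 -1.04), P2ry12 (0.86) and Ptger2 (1.20) passed as well, but each kept its call in 2 of 6 fits with 1 array left out. Hcar2 lost it without Gata6-KO replicate 1 or 2 or Gata6-WT replicate 1 or 2 (log2 -0.90, -0.93, -0.94 and -0.85). P2ry12 and Ptger2 lost it without Gata6-KO replicate 1 or 2 or Gata6-WT replicate 1 or 3 (log2 0.80, 0.74, 0.91 and 0.70 for P2ry12 and 1.13, 1.01, 1.05 and 1.00 for Ptger2).

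**Figure D4:**
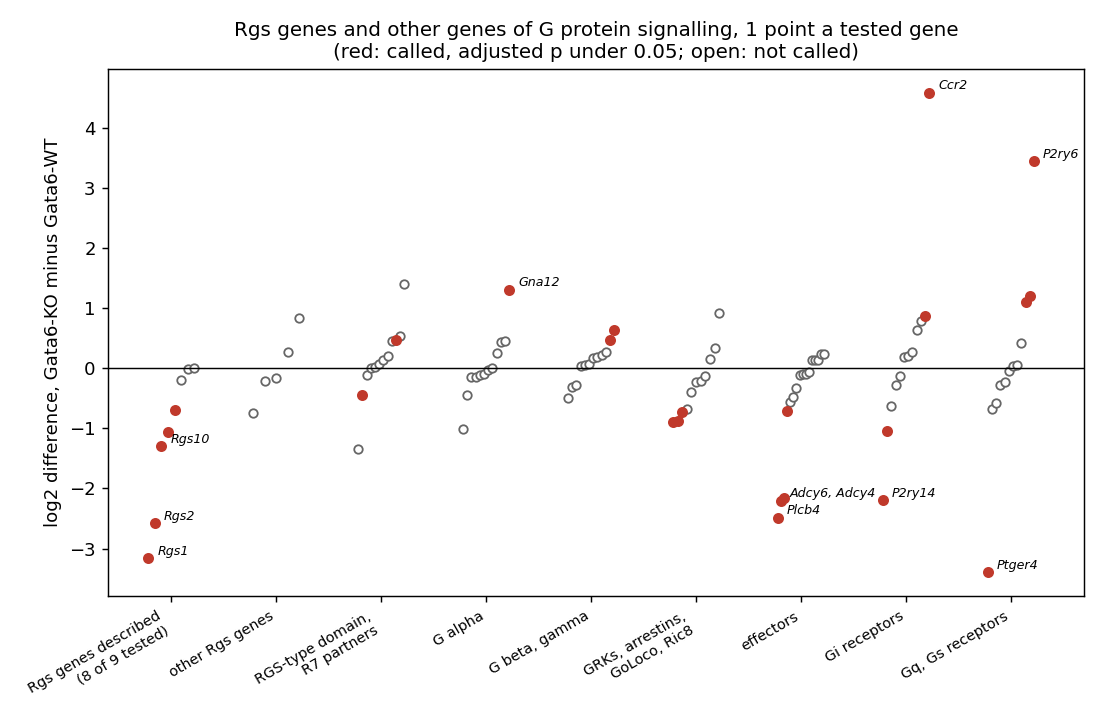
Log2 difference (Gata6-KO minus Gata6-WT) of each tested gene, 1 point a gene, for the Rgs genes described and 8 lists of other G protein signalling genes; red points passed an adjusted p of 0.05 in the fit across all probe sets and open points did not. The called Rgs genes, modulators and effectors lie below 0, the called G protein subunits above 0, and the receptors and RGS-type genes on both sides.

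Over the 8 lists together 9 of 92 tested genes rose and 11 fell, where 5.61% of all tested genes were called higher and 7.46% lower. The lists were drawn up with earlier results of these data known, and no test of the lists was made.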

How the data were processed

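Members and gene lists were chosen with earlier results of these data known. Per the submitters' processing notes the authors used MAS5 and affy, with no version given; the deposited values are linear intensities, 1 per probe set and array. A mean trimmed by 2% at both ends came to 500 for all 6 arrays. MAS5 generally corrects for mismatch probes, which makes low signals less reliable. Its settings are not named in the labels, and no detection calls were used.

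Symbols came from the array annotation table. Without 64 control probe sets, the log2(signal + 16) values of 27022 probe sets above the 40th percentile of means were fitted with limma 3.58.1 in R 4.3.3 (lmFit, eBayes with a trend, two-sided, Benjamini-Hochberg over all tested). A gene is represented by whichever of its tested probe sets has the top mean. Of 219 listed genes 199 had a probe set, 1 of them through a synonym. Named genes are every probe set of the 9 Rgs genes, Gata6, and from each pathway list and the immediate early list the up to 4 called genes that changed most or, with none called, the 2 of smallest p. Other list members are named with their values.

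The fit was tested on a simulated Gata6-KO against Gata6-WT comparison with 27022 probe sets. Of 50 shifted by log2 0.5, 1, 2 and 3 each, it recovered 2%, 38%, 72% and 90%, with 3 false calls among 104. All shifts were upward, in far fewer probe sets than the 2916 called in the real comparison. The recovered shares therefore need not hold for the real comparison. The number of arrays limits the precision, and no pair of arrays held identical values. Alternatives were pseudocounts of 1 and 64, other filters, quantile and median scaling, no trend, array weights, a replicate block, a sex-type term, replicates 2 and 3 only, and omission of each array. The replicate numbers were not taken as pairs, since the correlations of same-numbered arrays' deviations were not all above 0.1. Sequences came from the RefSeq promoter table (GRCm38.p6). Figures were drawn with matplotlib 3.10.9.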

Additional observations from a re-analysis of the deposited data

How the results depend on the processing

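The 15 tested Rgs probe sets had 256 values under the alternatives. Of these, 254 moved by less than the spread between replicates. The exceptions were the means over probe sets of Rgs2 (-2.12) and Rgs3 (-0.17), and 7 values, all of probe sets that were not called, had the opposite sign. Rgs1, Rgs2 and Rgs18 were called in all 17 alternative fits. These fits reuse the arrays on which the genes were chosen, so nothing is read from this.

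The fit called 2916 probe sets, 5 of the Rgs genes and 20 of the other pathway genes. Without the variance trend these counts were 1459, 3 (without Rgs3 and Rgs10) and 10, and with replicates 2 and 3 only they were 1615, 3 and 13. Leaving out 1 array gave 1851 to 2465, 3 to 4 and 14 to 18. The first count differed by more than 1.5 times when Gata6-KO replicate 2 (1886) or 3 (1851) or Gata6-WT replicate 2 (1879) was left out. With a change of at least 2-fold required, 4 Rgs genes and 11 pathway genes were called. The other alternatives kept each count within 1.5 times. The Gata6 probe set that did not pass (-0.01) turned to 0.075 with array weights, 0.16 when Gata6-KO replicate 2 was left out and 0.18 when Gata6-WT replicate 3 was. Of 26 called genes or probe sets named outside the 9 Rgs genes, 14 kept their call in all 6 fits with 1 array left out. The causes of these shifts were not tested.

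With the replicate number as a block (replicate block) the counts were 3076, 5 and 20. Deviations of same-numbered arrays correlated at 0.074 to 0.13, and all 6 arrays correlated best with their own number, a hint from the data and not from the design. The signals of Rgs16, and of Rgs1 in Gata6-KO, lie near or below the filter level of 47.5, which limits the precision of their differences.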
